A study of Mus musculus with 9 samples.

Results

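Gene expression in BaF3 cells carrying the fusion kinase FGFR1OP-RET was set against that in BaF3 cells carrying BCR-ABL, with 3 arrays a side. The arrays were chosen by their sample titles and make up 6 of the 9 arrays of the series. BaF3 is a mouse blood progenitor line that needs interleukin-3 to grow, and fusion kinases can take the place of that cytokine. The FGFR1OP-RET cells had been infected with a retrovirus carrying that fusion, and the BCR-ABL cells with a retrovirus carrying the fusion that the series design names BCR-ABL1P210. In both groups the infected cells were sorted by EGFP fluorescence, and total RNA was read on Affymetrix MouseGene 1.0 ST arrays. The remaining 3 arrays, of BaF3 cells infected and sorted in the same way with BCR-RET, entered the estimate of the spread, and their values are given beside those of the comparison. All groups therefore share the retroviral infection, the sort and the parental line. Cells without a fusion were not analysed here, so a difference does not say which of the fusions moved a gene away from its level in BaF3 cells. No label says that replicate arrays stand for independent infections, so each p-value reflects array-to-array spread that may be only technical.

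RET is a receptor tyrosine kinase, and FGFR1OP, now called Cep43, is a centrosomal protein whose dimerisation domain lets the joined kinase signal without a ligand. ABL is a cytoplasmic tyrosine kinase that BCR activates in the same manner, and BCR-ABL drives chronic myeloid leukaemia. Both kinds of fusion feed the RAS-ERK, PI3K-AKT and STAT pathways through docking proteins. The title of the series ties the RET fusions to chronic myelomonocytic leukaemia and to monocyte differentiation, a programme in which precursors make granule proteases first and surface receptors for microbes and antibodies later.

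Of 19938 genes tested, 203 (1.02%) passed at an adjusted p under 0.05, of which 157 (0.787% of all genes) were higher and 46 (0.231%) were lower in FGFR1OP-RET cells. Here and below, a difference is the FGFR1OP-RET mean minus the BCR-ABL mean on the log2 scale, where 1 is a 2-fold change, and an adjusted p is from limma's moderated test with Benjamini-Hochberg adjustment over all genes. Differences were moderate in size: the median of the higher genes was 0.56, that of the lower genes was -0.58, and 30 genes (24 higher, 6 lower) differed by at least 1. Over all genes the median difference was 0.00, and 50.8% of genes lay above 0. In each of the 203 genes the 3 arrays of one group lay above the 3 of the other, which was also true of 12.1% of all genes. The genes that passed were found mostly at middle and high levels. Among the 4985 genes with the lowest levels (9-array mean up to 6.98) 3 were higher and 1 was lower, and among the 4985 with the highest levels (from 10.21) 48 were higher and 28 lower.

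**Figure D1:**
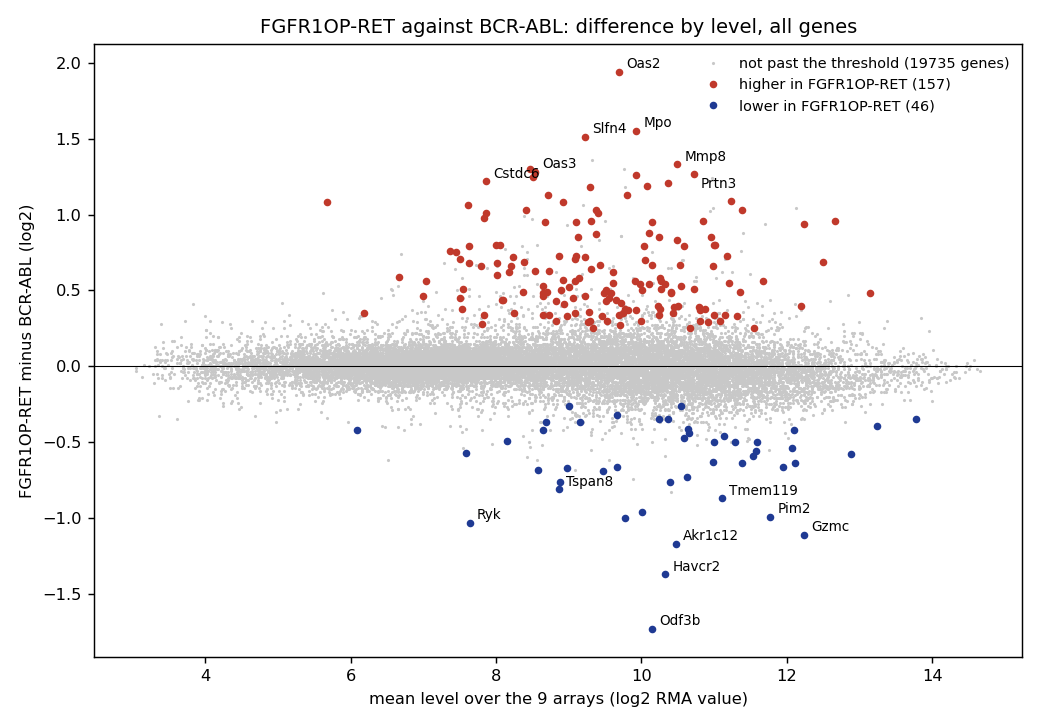
Each point is 1 of 19938 genes, with its mean log2 RMA value over the 9 arrays on the x axis and FGFR1OP-RET minus BCR-ABL (log2) on the y axis. Red points are the 157 genes higher and blue points the 46 genes lower in FGFR1OP-RET cells at an adjusted p under 0.05. Oas2 lies at 1.94 and Odf3b at -1.73, and few coloured points stand at low levels.

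The counts depended on which arrays entered. With the 6 arrays of the comparison alone, 94 genes passed, of which 90 were among the 203. Without 1 array in turn, between 70 (without BCR-ABL replicate 2) and 185 (without FGFR1OP-RET replicate 1) genes passed, and 65 of the 203 (48 higher, 17 lower) passed under all 9 omissions. A call is described below as held when it passed each of these 9 omissions. The direction of all 203 was the same in each fit. The gene lists below were chosen with earlier results of these data known, and 6.37% of their measured genes passed. Counts of list members are to be read against that share as well as the 1.02% of all genes. Beside many values stands the direct contrast of FGFR1OP-RET with BCR-RET cells, in which 265 of the 19938 genes (1.33%) passed and which shares the FGFR1OP-RET arrays with the comparison.

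The mouse genes behind the fusions were read first, although the labels do not say which species or parts of the genes the constructs hold. Ret read 7.91, 7.97 and 7.80 in BCR-ABL cells and 8.11, 8.02 and 8.05 in FGFR1OP-RET cells (difference 0.17, SE 0.06, adjusted p = 0.329). Abl1 read 11.14, 11.27 and 11.17 against 10.94, 10.87 and 11.01 (difference -0.25, adjusted p = 0.207). In both genes the groups did not overlap, and each was on the side of its own fusion, but neither passed. Bcr differed by -0.43 (adjusted p = 0.153) and Cep43 by 0.08 (adjusted p = 0.621). Of 7 measured pro-B markers limma called 0, with 0 at an unadjusted p under 0.05. In BCR-ABL cells the 7 ranged from 6.05 for Cd79a, the B-cell receptor component (difference -0.05), to 7.73 for Igll1 (difference 0.12). Of the 6 mast cell markers Gata2, also a factor of progenitors, lay near the top of the scale at 12.95 and 12.91. Fcer1a (5.07 and 4.91) and Ms4a2 (4.84 and 4.91) lay near the bottom. Kit (7.35 and 7.34), Mcpt8 (9.06 and 9.88) and Cpa3 (10.39 and 9.80) lay between. Of the 8 measured monocyte markers 3 were higher, and so were 2 of 10 neutrophil markers and 1 of 3 erythroid markers. No marker of the mast cell, eosinophil, megakaryocyte, lymphoid, dendritic or stromal sets passed. The 8 monocyte markers averaged 8.41 to 8.45 on BCR-ABL arrays and 8.68 to 8.89 on FGFR1OP-RET arrays, and the 10 neutrophil markers 9.19 to 9.40 and 9.63 to 9.95. In whole-culture RNA, more cells of a kind and more RNA per cell cannot be told apart. The part of such cells in the results below was not tested.

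Genes induced by interferon were the most numerous group. Type I and type II interferons bind surface receptors that act through JAK kinases and STAT proteins, and the genes they switch on block viruses and display antigens. Of 53 measured interferon-induced effectors, 16 were higher and none was lower in FGFR1OP-RET cells, and the median difference of the list was 0.31 against 0.00 over all genes. Of the 53, 46 lay above 0, and 37 had an unadjusted p under 0.05, each of them higher, against 9.75% of all genes with such a p in either direction. Averaged over the list, the BCR-ABL arrays lay between 8.72 and 8.85, the FGFR1OP-RET arrays between 9.18 and 9.19, and the BCR-RET arrays between 8.98 and 9.13. The FGFR1OP-RET arrays were therefore almost level with each other and above the other 6.

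Oas2, which makes the oligoadenylate signal that activates the antiviral ribonuclease RNase L, differed more than any other gene that passed. Its log2 values were 8.93, 8.79 and 8.73 in BCR-ABL cells and 11.04, 10.74 and 10.50 in FGFR1OP-RET cells. The difference was 1.94 (SE 0.14, 3.85-fold, adjusted p = 0.000507), and the call held. Oas3, of the same enzyme family, read 8.04, 8.13 and 7.93 against 9.38, 9.34 and 9.22, a difference of 1.28 (SE 0.07, 2.43-fold, adjusted p = 0.000106), also held. Both stood apart from BCR-RET cells as well: Oas2 was higher by 1.27 (adjusted p = 0.00338) and Oas3 by 1.07 (adjusted p = 0.000189) in FGFR1OP-RET cells. Oasl2, an oligoadenylate synthetase-like protein, read 8.07, 8.02 and 8.17 against 9.31, 9.19 and 9.15 (difference 1.13, SE 0.11, adjusted p = 0.00213), but its difference from BCR-RET cells, 0.38, did not pass (adjusted p = 0.159). The other effectors that passed ranged from 0.95 for Zbp1, a sensor of Z-form nucleic acid, to 0.29 for Parp9. They were Irgm1 (0.87), Isg20 (0.85), Ifit1 (0.80), Trim30a (0.79), Rtp4 (0.79), Oasl1 (0.72), Xaf1 (0.72), Oas1b (0.66), Sp100 (0.64), Gbp7 (0.55) and Lgals3bp (0.55).

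In some of these genes BCR-RET cells stood as high as FGFR1OP-RET cells. Ifit1, which binds viral RNA, read 7.07, 7.52 and 7.58 in BCR-ABL cells, 8.29, 8.07 and 8.21 in FGFR1OP-RET cells and 8.25, 8.68 and 8.39 in BCR-RET cells. Isg20, an antiviral exonuclease, read 9.52, 9.64 and 9.77, then 10.36, 10.39 and 10.71, then 10.39, 10.68 and 10.66 in the same order. The direct contrasts of the RET fusions were -0.25 for Ifit1 (adjusted p = 0.464) and -0.09 for Isg20 (adjusted p = 0.757). Of the 16 effector calls, 8 held: Oas2, Oas3, Oasl2, Zbp1, Trim30a, Oasl1, Xaf1 and Gbp7. Without BCR-ABL replicate 2 the same 8 were left, without BCR-ABL replicate 1 or FGFR1OP-RET replicate 2 10 passed, and the other omissions left 11 to 14, with the adjusted p of the lost calls between 0.0543 and 0.175.

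Interferon sensors and transducers changed in fewer members. Of 31 measured, 5 were higher and none was lower, and the median difference was 0.03. Irf7, the transcription factor that amplifies type I interferon, read 7.80, 8.08 and 7.85 against 9.15, 9.28 and 9.06 (difference 1.25, SE 0.12, 2.38-fold, adjusted p = 0.00216) and was also above BCR-RET cells by 0.71 (adjusted p = 0.026). Usp18, which strips the ubiquitin-like protein ISG15 from its targets and damps the interferon receptor, read 8.70, 8.60 and 8.71 against 10.05, 9.89 and 9.62 (difference 1.18, SE 0.15, adjusted p = 0.00697). Ddx58 (0.95, adjusted p = 0.00234) and Ifih1 (0.56, adjusted p = 0.00766) encode cytosolic sensors of viral RNA. Irf9, the DNA-binding partner of the STATs, read 9.68, 9.86 and 9.89 against 10.27, 10.38 and 10.39 (difference 0.54, adjusted p = 0.00784). The BCR-RET arrays, at 9.68, 9.82 and 9.83, lay level with BCR-ABL for Irf9 and 0.57 below FGFR1OP-RET cells (adjusted p = 0.00604). Jak1, the receptor kinase, was at -0.26 (adjusted p = 0.273), the lowest value of the list, and Stat2 at 0.37 (adjusted p = 0.124). Without BCR-ABL replicate 2 the calls of Usp18 (adjusted p = 0.0506) and Ifih1 (0.0528) ended, and Irf7, Ddx58 and Irf9 held.

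Genes of antigen display and the Schlafen genes are both known to respond to interferon. Of 26 measured genes of antigen processing, 5 were higher and none was lower (median 0.18), and 14 lay within 0.2 of 0. Tapbp, which loads peptides on class I molecules, read 9.99, 9.96 and 10.01 against 10.52, 10.56 and 10.56 (difference 0.56, SE 0.05, adjusted p = 0.00143). Tap1, the peptide pump, differed by 0.50 (adjusted p = 0.00332), the non-classical class I gene H2-T24 by 0.68 (adjusted p = 0.00506), the immunoproteasome subunit Psmb9 by 0.34 (adjusted p = 0.0278) and the lysosomal thiol reductase Ifi30 by 0.46 (adjusted p = 0.0124). B2m, the shared light chain of class I, is in the same list and did not pass. Leaving out an array kept 3 to 5 of the 5 calls; Tapbp, Tap1 and H2-T24 held, while without BCR-ABL replicate 2 Psmb9 had an adjusted p of 0.132 and Ifi30 of 0.0761.

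Schlafen genes encode regulators of growth and virus restriction in blood cells. Of 7 measured, 3 were higher and none was lower. Slfn4 read 8.81, 8.61 and 8.53 against 10.09, 10.73 and 9.67 (difference 1.51, SE 0.22, 2.85-fold, adjusted p = 0.012). The FGFR1OP-RET arrays of Slfn4 spread over more than a log2 unit, yet the lowest of them was above the highest of the other 6. Slfn1 was tighter, at 7.55, 7.42 and 7.63 against 8.44, 8.50 and 8.58 (difference 0.98, SE 0.10, adjusted p = 0.00252), and held. Slfn5 differed by 0.80 (adjusted p = 0.049), and the other 4 did not pass, with Slfn2 at 0.04 and Slfn3 at -0.32 (adjusted p = 0.277). Leaving out BCR-ABL replicate 2 ended the calls of Slfn4 (adjusted p = 0.0788) and Slfn5 (0.22), and the other omissions left 2 or 3.

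The stretch of DNA before the start of these genes was searched for the letters of an interferon response element. Promoters are the 250 bases upstream of the annotated start, from RefSeq on build GRCm38.p6, for the 15614 tested genes that matched by symbol. The motif, GAAA followed after any 2 bases by GAAA, on either strand, was in 3.4% of all of them, in 15 of 120 promoters of higher genes (12.5%), and in 0 of 35 promoters of lower genes. It was in 5 of the 15 matched promoters of interferon list members that passed (33.3%), and members that did not pass were not counted. These 5 are shown because they join the letters to the largest group of calls; each runs along the strand of its gene with 35 bases or fewer to either side, and capitals mark the match, which appears as TTTC, 2 bases and TTTC where it lies on the opposite strand.
Oas3, chr5:120777690-120777769, minus strand: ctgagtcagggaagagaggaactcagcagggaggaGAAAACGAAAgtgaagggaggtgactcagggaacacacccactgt
Irgm1, chr11:48871421-48871485, minus strand: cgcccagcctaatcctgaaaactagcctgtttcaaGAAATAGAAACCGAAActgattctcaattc
Ifit1, chr19:34640750-34640848, plus strand: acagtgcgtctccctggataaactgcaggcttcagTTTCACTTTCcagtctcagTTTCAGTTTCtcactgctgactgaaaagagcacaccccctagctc
Trim30a, chr7:104465194-104465264, minus strand: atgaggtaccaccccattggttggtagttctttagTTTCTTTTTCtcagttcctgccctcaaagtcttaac
Gbp7, chr3:142530248-142530327, plus strand: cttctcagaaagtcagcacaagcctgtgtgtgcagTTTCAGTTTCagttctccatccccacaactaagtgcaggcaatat
The match nearest the start lies between 14 bases upstream in Irgm1 and 75 in Ifit1, and Irgm1 and Ifit1 hold 2 matches each. A match is a description of the letters and not evidence that a factor binds. Outside the interferon lists the motif was in 10 of 105 promoters of higher genes (9.52%), among them Slfn5, Ncf1, Pilra and Tnfrsf14. The palindrome TTCNNNGAA, the core of STAT sites, which can overlap the first motif, was in 7.71% of all promoters, 8.33% of those of higher genes and 11.4% of those of lower genes (4 of 35).

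**Figure D2:**
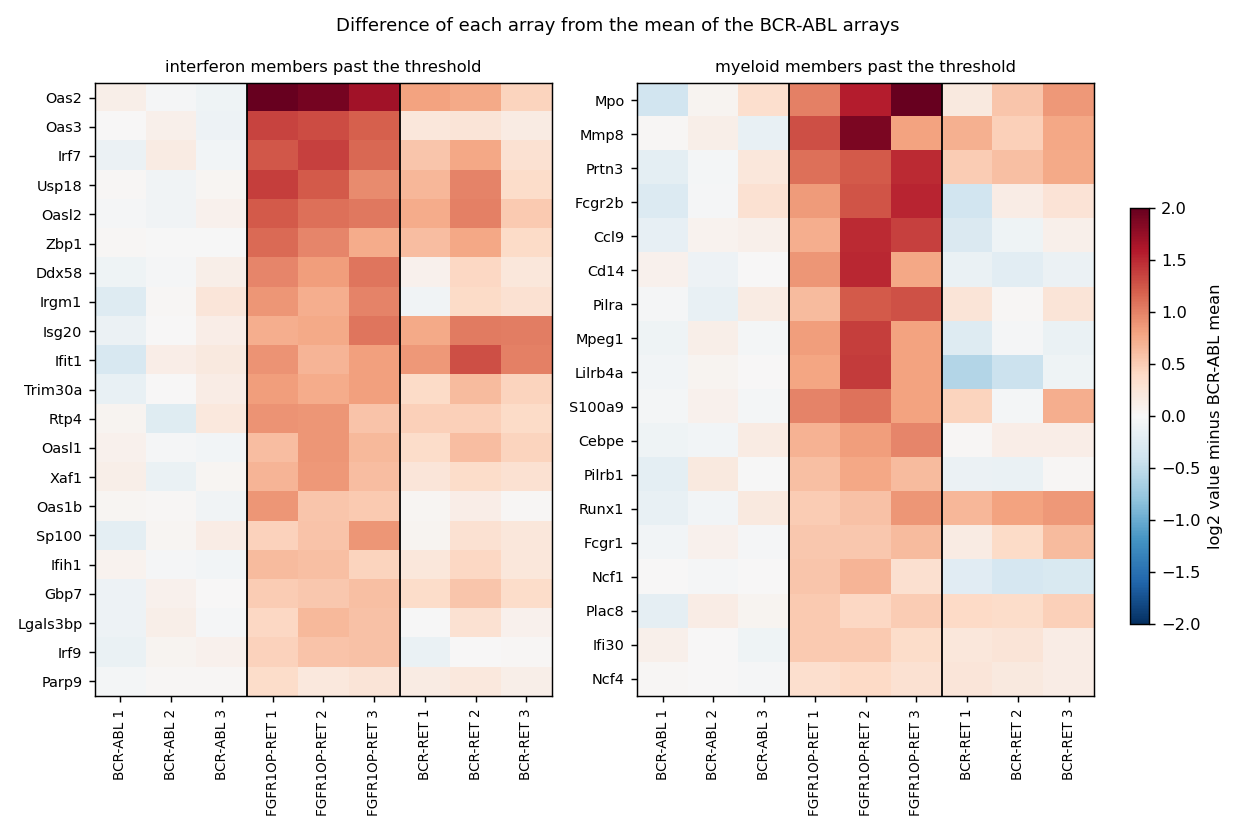
Each cell is the log2 value of 1 array minus the mean of the BCR-ABL arrays for 1 gene, with the 9 arrays in columns and the members past the threshold in rows, interferon lists on the left and myeloid lists on the right. In the rows of Oas2, Irf7 and Usp18 all 3 FGFR1OP-RET columns are red and the BCR-RET columns are paler, while Ifit1 and Isg20 are red in both RET fusions and Cd14, Lilrb4a and Ncf1 are not.

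Further genes known from interferon responses passed but were in no interferon list. Ifi27, Ube2l6, Trim14 and Trim34a were named by the rule given at the end, and the others were chosen after their values were seen. Ifi27, a small interferon-induced membrane protein of mitochondria, read 10.80, 10.71 and 10.70 against 11.92, 11.87 and 11.68 (difference 1.09, SE 0.07, 2.12-fold, adjusted p = 0.000351). Ube2l6 (0.71) and Uba7 (0.43) encode enzymes that conjugate ISG15, and their calls ended under 4 and 6 omissions. Epsti1 (0.67, adjusted p = 0.0102), Helz2 (0.62, adjusted p = 0.0115), Trim14 (0.56, adjusted p = 0.00628), Parp10 (0.52, adjusted p = 0.0244), Trim34a (0.46, adjusted p = 0.00784), Rnf213 (0.38, adjusted p = 0.0432) and Mov10 (0.30, adjusted p = 0.0311) were higher too. Of the 59 members of the Trim family, many of which are ubiquitin ligases, 3 passed, all higher, and the median difference of the 59 was 0.02. The calls of Ifi27, Epsti1 and Trim14 held; without BCR-ABL replicate 2 the others had adjusted p-values between 0.0561 (Trim34a) and 0.168 (Rnf213).

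Granule proteins of neutrophil and monocyte precursors are described next. Of 20 primary granule genes, 3 were higher and none was lower (median 0.23), and of 28 late neutrophil genes 2 were higher and none was lower (median 0.34). These are 15% and 7.14% of measured members, against 1.02% of all genes and 6.37% of all list genes. Mpo, the peroxidase that makes hypochlorous acid, read 8.84, 9.29 and 9.56 in BCR-ABL cells, 10.24, 10.80 and 11.33 in FGFR1OP-RET cells and 9.42, 9.78 and 10.09 in BCR-RET cells. The groups did not overlap, but the arrays of each were spread widely, and in all 3 groups they rose with replicate number. The difference of 1.55 (SE 0.28, 2.94-fold) had an adjusted p of 0.0347, with that spread counted as error. With replicate number added to limma's fit, a pairing that the design does not show, it was 1.84e-05. Prtn3, the serine protease proteinase 3, read 9.90, 10.05 and 10.31 against 11.19, 11.31 and 11.58, a difference of 1.27 (SE 0.12, 2.42-fold, adjusted p = 0.00234) that held. It was higher than in BCR-RET cells by 0.65 (adjusted p = 0.0456), whereas for Mpo that contrast, 1.02, did not pass (adjusted p = 0.14). Plac8 rose by 0.48 (adjusted p = 0.0256). Other genes of the same granules had large values that did not pass, such as Ctsg, cathepsin G, at 8.12, 8.45 and 9.27 against 9.37, 9.94 and 10.60 (difference 1.36, adjusted p = 0.25), and Elane, neutrophil elastase, at 0.71 (adjusted p = 0.232).

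Mmp8, the collagenase stored by maturing neutrophils, read 9.85, 9.95 and 9.68 against 11.12, 11.72 and 10.64 (difference 1.33, SE 0.22, 2.52-fold, adjusted p = 0.0249). S100a9, a calcium-binding protein of neutrophil and monocyte cytoplasm, was already high and read 12.17, 12.30 and 12.17 against 13.20, 13.30 and 13.01 (difference 0.96, SE 0.16, adjusted p = 0.0278). Its partner S100a8 read 12.12, 12.69 and 12.78 against 12.80, 13.27 and 12.94, groups that just missed overlapping and did not pass (difference 0.47, adjusted p = 0.501). Ly6g, the surface marker of mature neutrophils, was at -0.11 (adjusted p = 0.797). Of the granule calls only Prtn3 held. Mpo lost its call under 7 omissions (adjusted p up to 0.156, without BCR-ABL replicate 2), Mmp8 under 5 (up to 0.115, without BCR-ABL replicate 3), S100a9 under 5 (up to 0.146, without FGFR1OP-RET replicate 2) and Plac8 under 5 (up to 0.0823, without BCR-ABL replicate 3).

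The promoters of these genes were searched for GAGGAAGT, letters of the site that PU.1, the myeloid ETS factor encoded by Spi1, is known to prefer. Either strand held it in 2.59% of all promoters, in 7 of 120 of higher genes (5.83%) and in 2 of 35 of lower genes (5.71%). Of the 13 matched promoters of granulocyte and monocyte list members that passed, 3 held it (23.1%), and the interferon motif above was in the same number of these 13. They are shown because they belong to the genes described above, along the gene's strand on GRCm38.p6 with the match in capitals, written ACTTCCTC where it lies on the opposite strand.
Mpo, chr11:87793534-87793602, plus strand: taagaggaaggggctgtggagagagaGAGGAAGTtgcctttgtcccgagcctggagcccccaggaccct
Mmp8, chr9:7558179-7558250, plus strand: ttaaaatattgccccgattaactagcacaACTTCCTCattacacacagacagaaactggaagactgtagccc
Prtn3, chr10:79879537-79879614, plus strand: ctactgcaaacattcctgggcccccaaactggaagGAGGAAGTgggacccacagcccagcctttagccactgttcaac
The match ends 216 bases before the start in Mpo, 213 in Mmp8 and 87 in Prtn3. Spi1 itself read 11.46, 11.70 and 11.62 against 11.78, 11.87 and 12.32, without overlap but without passing (difference 0.40, adjusted p = 0.299).

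Monocyte and macrophage genes were called in 9.09% of measured members, against 1.02% of all genes and 6.37% of all list genes. Of 44 measured, 4 were higher and none was lower, and the median difference was 0.05. Cd14, the co-receptor for bacterial lipopolysaccharide, read 7.40, 7.21 and 7.32 against 8.20, 8.81 and 8.08 (difference 1.06, SE 0.16, 2.08-fold, adjusted p = 0.0146). The BCR-RET arrays of Cd14 read 7.18, 7.10 and 7.19, and BCR-RET minus BCR-ABL, -0.15, did not pass (adjusted p = 0.72). Mpeg1, the pore-forming protein perforin-2 of macrophages, read 7.49, 7.69 and 7.53 against 8.40, 8.96 and 8.38 (difference 1.01, SE 0.14, adjusted p = 0.0106). Ccl9, a chemokine of myeloid cells, rose by 1.19 (SE 0.18, adjusted p = 0.0176). All 3 were also above BCR-RET cells, by 1.21 (adjusted p = 0.00775), 1.16 (adjusted p = 0.00591) and 1.28 (adjusted p = 0.0129). The receptor that defines the lineage, Csf1r, was level at 7.07 and 7.09 (adjusted p = 0.964), and so were the macrophage marker Adgre1 (0.10, adjusted p = 0.884) and the monocyte chemokine receptor Ccr2 (0.05, adjusted p = 0.922). None of the 4 calls passed without BCR-ABL replicate 3 (adjusted p = 0.0597 to 0.0695), and 1 passed without BCR-ABL replicate 1 or 2.

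Receptors through which phagocytes sense antibodies and each other were counted in 2 lists. Of the Fc gamma list 25% passed, and of the TREM, LILR and C-type lectin list 8.82%. The share was 1.02% of all genes and 6.37% of all list genes. No call of either list held. Of 8 genes for Fc gamma receptors and their partners 2 were higher (median 0.52). Of 34 TREM, LILR and C-type lectin genes 3 were higher (median 0.18), and limma called no member of either list lower. Of the 34, 18 lay within 0.2 of 0. Fcgr2b, the inhibitory receptor for IgG, read 9.68, 9.94 and 10.27 against 10.81, 11.21 and 11.49 (difference 1.21, SE 0.22, adjusted p = 0.0366). Fcgr1, the high-affinity receptor, differed by 0.57 (adjusted p = 0.0351). Fcgr3 (0.97, adjusted p = 0.0637) and Fcgr4 (0.47, adjusted p = 0.24) did not pass. The inhibitory receptors Pilra and Lilrb4a differed by 1.03 (adjusted p = 0.0162) and 1.01 (adjusted p = 0.0251), and Pilrb1, the activating partner of Pilra, by 0.68 (adjusted p = 0.0113). Trem1, which amplifies inflammatory signals, read 8.88, 9.27 and 9.32 against 9.67, 10.40 and 10.50 and did not pass (difference 1.03, adjusted p = 0.108), nor did Clec5a, the myeloid lectin MDL-1, at 1.24 (adjusted p = 0.0506). The inhibitory receptor Cd200r1 and its neighbour Cd200r4 differed by 0.69 (adjusted p = 0.00574) and 0.76 (adjusted p = 0.00314) and held. The call of Fcgr2b ended under 7 omissions (adjusted p up to 0.173), of Fcgr1 under 7 (up to 0.147), of Pilra and Lilrb4a under 4 each (up to 0.109 and 0.12) and of Pilrb1 under 2 (up to 0.0678). As in Mpo, the arrays of Fcgr2b rose with replicate number in each group, and with that number in limma's fit its adjusted p was 1.84e-05. For the paralogues named here, as for the Oas, Slfn and Akr1c genes, whether a probe set also reads its near-identical neighbour was not tested.

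Cytosolic parts of the phagocyte oxidase and a factor of granulocyte maturation are considered next. Of 7 oxidase genes 2 were higher (28.6%, against 1.02% of all genes and 6.37% of all list genes). They were Ncf1, at 10.66, 10.63 and 10.66 against 11.20, 11.33 and 10.97 (difference 0.51, SE 0.08, adjusted p = 0.0198), and Ncf4, at 0.35 (adjusted p = 0.00954). Ncf1 read 10.42, 10.31 and 10.34 in BCR-RET cells, and the contrast of the RET fusions was 0.81 (adjusted p = 0.00259). BCR-RET minus BCR-ABL, -0.30, did not pass (adjusted p = 0.218). The membrane subunits Cybb (0.26, adjusted p = 0.605) and Cyba (0.37, adjusted p = 0.215) did not pass. Of 30 myeloid transcription factors 2 were higher (6.67%). Cebpe, which late granulocyte genes require, read 10.09, 10.12 and 10.34 against 10.87, 11.01 and 11.15 (difference 0.83, SE 0.09, 1.78-fold, adjusted p = 0.00307), stood above BCR-RET cells by 0.73 (adjusted p = 0.00591) and held. Runx1 read 10.35, 10.44 and 10.70 against 11.16 ± 0.20 (SD, n = 3) (difference 0.66, adjusted p = 0.032) and was as high in BCR-RET cells (11.17, 11.30 and 11.37). Cebpa, the factor that starts the granulocyte line, was level at -0.02 (adjusted p = 0.957). Without BCR-ABL replicate 2 the adjusted p was 0.168 for Runx1, 0.119 for Ncf1 and 0.0561 for Ncf4.

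Chemokines and their receptors changed in both directions. Of 32 chemokines 3 were higher and none was lower, and of 22 chemokine receptors 1 was higher and 1 lower. These shares were 9.38% and 9.09%, against 1.02% of all genes and 6.37% of all list genes. Ccl3 read 9.47, 9.54 and 9.60 against 10.45, 11.06 and 10.88 (difference 1.26, SE 0.24, 2.39-fold, adjusted p = 0.0464), and its receptor Ccr1 read 7.88, 8.11 and 8.42 against 9.09, 9.48 and 9.73 (difference 1.30, SE 0.19, 2.46-fold, adjusted p = 0.0146). Ligand and receptor were thus both higher, and both were above BCR-RET cells, by 1.37 (adjusted p = 0.0322) and 1.59 (adjusted p = 0.00591). Cxcl2, which attracts neutrophils, rose by 0.59 (adjusted p = 0.0292). Ccr4, the receptor of T helper cells for Ccl17 and Ccl22, went down, from 10.21, 10.17 and 10.39 to 9.08, 9.21 and 9.48 (2.01-fold, SE 0.11 on the log2 scale, adjusted p = 0.00406), and held. Without FGFR1OP-RET replicate 2 the adjusted p of Ccl3 was 0.208, and without BCR-ABL replicate 2 that of Ccr1 was 0.0899, that of Ccl9 0.0871 and that of Cxcl2 0.16.

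Among 36 cytokines, Il1rn, the natural antagonist of the interleukin-1 receptor, read 7.55, 7.45 and 7.59 against 8.12, 8.30 and 8.16 (difference 0.66, SE 0.07, adjusted p = 0.00234), and oncostatin M (Osm) rose by 0.56 (adjusted p = 0.0073). Both held, and no cytokine was lower. Among 37 cytokine receptors the shared beta chain of the receptors for interleukin-3, interleukin-5 and GM-CSF, Csf2rb, read 11.92, 12.10 and 12.06 against 12.63, 12.64 and 12.89 (difference 0.69, SE 0.09, 1.62-fold, adjusted p = 0.00649). Its mouse twin Csf2rb2, which serves interleukin-3 alone, read 11.07, 11.17 and 11.31 against 11.66, 11.68 and 11.88 (difference 0.56, adjusted p = 0.0236). BCR-RET cells stood at the same height or above (Csf2rb 12.77, 12.85 and 12.63, Csf2rb2 11.99, 12.24 and 12.04). The interleukin-3 alpha chain Il3ra was at 0.18 (adjusted p = 0.584). Csf2rb held, and Csf2rb2 lost its call under 4 omissions (adjusted p up to 0.131, without BCR-ABL replicate 2).

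**Figure D3:**
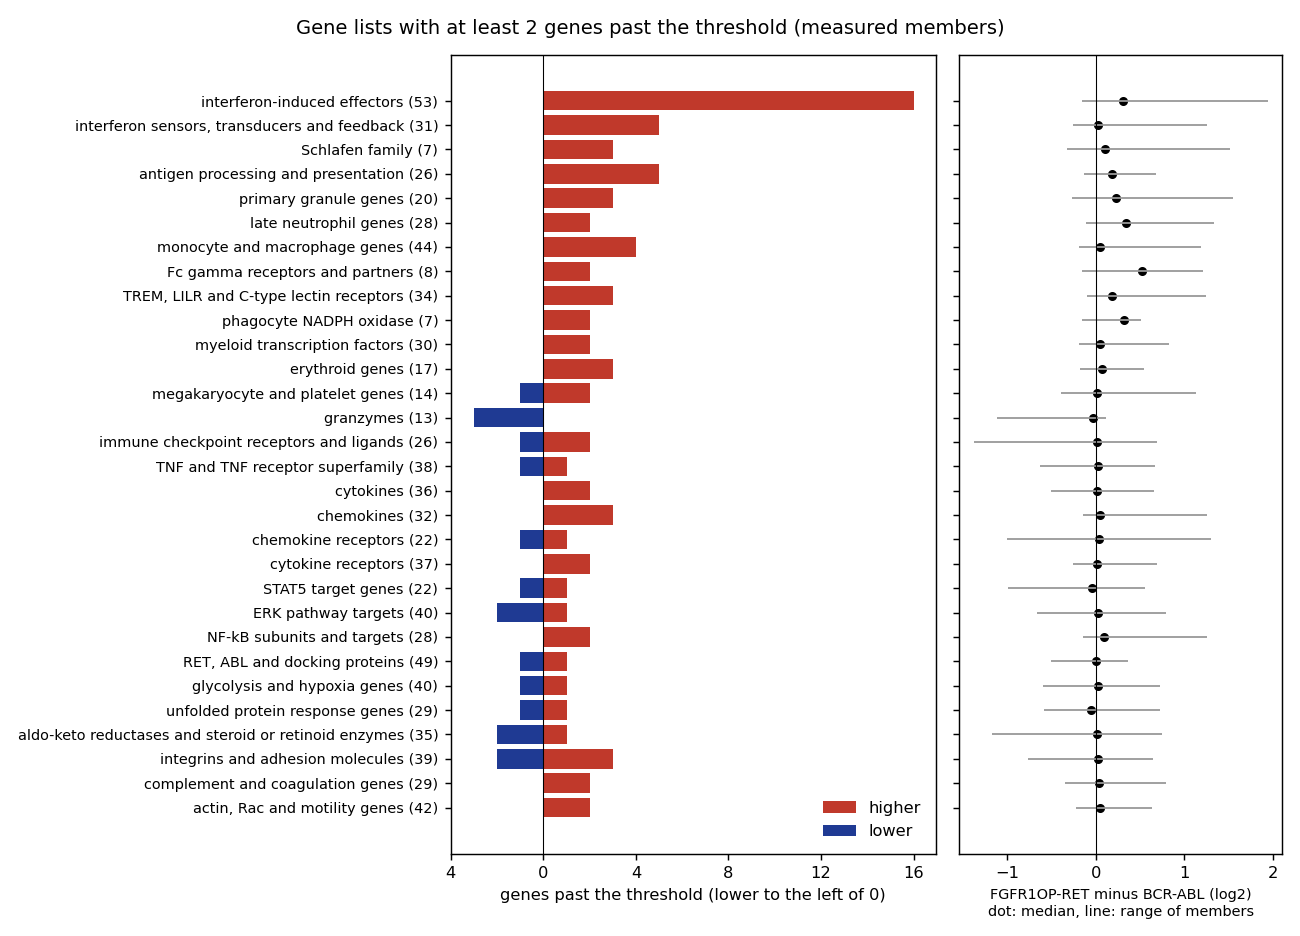
Bars on the left count the genes past the threshold in each list that had at least 2 such genes, with higher genes to the right and lower genes to the left of 0 and the number of measured members in brackets. On the right, dots are the median and lines the range of FGFR1OP-RET minus BCR-ABL (log2) over all measured members; interferon-induced effectors have 16 higher genes, granzymes 3 lower genes, and most medians lie near 0.

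The erythroid and platelet lists are short, and 17.6% and 21.4% of their measured genes passed. The share was 1.02% of all genes and 6.37% of all list genes. Of 17 erythroid genes 3 were higher: the progenitor factor Lmo2 (0.54, adjusted p = 0.0238), Gata1 (0.45, adjusted p = 0.0423) and Nfe2 (0.39, adjusted p = 0.021). Gata1, the main erythroid factor, read 9.20, 9.07 and 9.17 against 9.61, 9.57 and 9.60. BCR-RET cells read 9.86, 10.10 and 9.74, and the contrast of the RET fusions, -0.30, did not pass (adjusted p = 0.143). For Lmo2 the contrast of the RET fusions was 0.97 (adjusted p = 0.00201), while BCR-RET minus BCR-ABL, -0.42, did not pass (adjusted p = 0.0927). Of 14 megakaryocyte genes Thbs1, thrombospondin, rose by 1.13 (2.18-fold, adjusted p = 0.011) and Itgb3, whose FGFR1OP-RET arrays carry a single repeated value of 8.96, by 0.50 (adjusted p = 0.0152), while F2r, the thrombin receptor, fell by 0.39 (adjusted p = 0.0254). None of the 6 calls held. Without BCR-ABL replicate 1, 2 or 3 in turn, none of the 3 erythroid and none of the 3 platelet calls passed, with an adjusted p of up to 0.204 for Gata1.

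Downstream of the kinases themselves, 9.09% of STAT5 targets and 7.5% of ERK targets passed, against 1.02% of all genes and 6.37% of all list genes. Of 22 STAT5 targets, Osm was higher and Pim2, a survival kinase, was lower. Pim2 read 12.14, 12.02 and 12.02 against 11.31, 10.81 and 11.07 (difference -0.99, SE 0.12, 1.99-fold, adjusted p = 0.00511), held, and was lower than in BCR-RET cells by a similar step (-1.13, adjusted p = 0.003). Other targets of STAT5 did not pass, with Cish at -0.31 (adjusted p = 0.221), Socs2 at -0.11 (adjusted p = 0.839) and Pim1 at -0.09 (adjusted p = 0.776). Of 40 ERK targets Plaur, the urokinase receptor, rose by 0.79 (adjusted p = 0.0105), while Hbegf fell by 0.66 (adjusted p = 0.00344) and Etv5 by 0.35 (adjusted p = 0.0423), while a second Etv5 probe set read -0.25. Hbegf, a growth factor that binds the EGF receptor, read 10.12, 10.23 and 10.13 against 9.43, 9.62 and 9.44. BCR-RET cells read 9.31, 9.49 and 9.28, and the contrast of the RET fusions, 0.14, did not pass (adjusted p = 0.419). The ERK feedback genes Dusp6 (0.06, adjusted p = 0.927) and Spry2 (-0.04, adjusted p = 0.941) were level. Plaur passed under 7 of the 9 omissions (adjusted p up to 0.0686) and Etv5 under 1 (up to 0.201, both without BCR-ABL replicate 2), and Hbegf held.

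Of 49 genes for RET, ABL and their docking proteins, Gab2 rose by 0.37 (adjusted p = 0.0162) and Dok2 fell by 0.50 (adjusted p = 0.00314). Gab2 is a scaffold that BCR-ABL uses to reach PI3K and RAS, and Dok2 is an adaptor that restrains signalling by tyrosine kinases. Dok2 read 11.88, 11.82 and 11.74 against 11.33, 11.33 and 11.29, held, and was below BCR-RET cells by 0.33 (adjusted p = 0.0207). Of 32 PI3K pathway genes the catalytic subunit Pik3cb rose by 0.34 (adjusted p = 0.0332), which ended under 7 omissions (adjusted p up to 0.173). The adjusted p of Gab2 was 0.0854 without BCR-ABL replicate 2, and its call ended under 3 omissions. Of 28 NF-kB genes, Ccl3 and Cxcl2, given above, were the 2 that passed.

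Genes lower in FGFR1OP-RET cells were fewer and of mixed kind. Odf3b, a relative of the outer dense fibre proteins of sperm tails, read 11.15, 10.66 and 10.51 in BCR-ABL cells, 9.21, 9.25 and 8.68 in FGFR1OP-RET cells and 10.75, 10.75 and 10.38 in BCR-RET cells. It fell by 1.73 (SE 0.20, 3.31-fold, adjusted p = 0.00403), held, and was lower than in BCR-RET cells by almost as much (-1.58, adjusted p = 0.00604). Havcr2, the checkpoint receptor TIM-3, read 10.78, 11.02 and 11.06 against 9.23, 9.54 and 9.98 (difference -1.37, SE 0.20, 2.59-fold, adjusted p = 0.0113); its call ended under 3 omissions (adjusted p up to 0.0764, without BCR-ABL replicate 2). Of the other 25 checkpoint genes Cd274, the ligand PD-L1, rose by 0.33 (adjusted p = 0.0446), with its call ended under 8 omissions (up to 0.188), and Cd200r1 is given above. Pdcd1, the receptor PD-1, did not pass against BCR-ABL (0.19, adjusted p = 0.426) but stood lower than in BCR-RET cells (contrast -1.90, adjusted p = 6.88e-06).

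**Figure D4:**
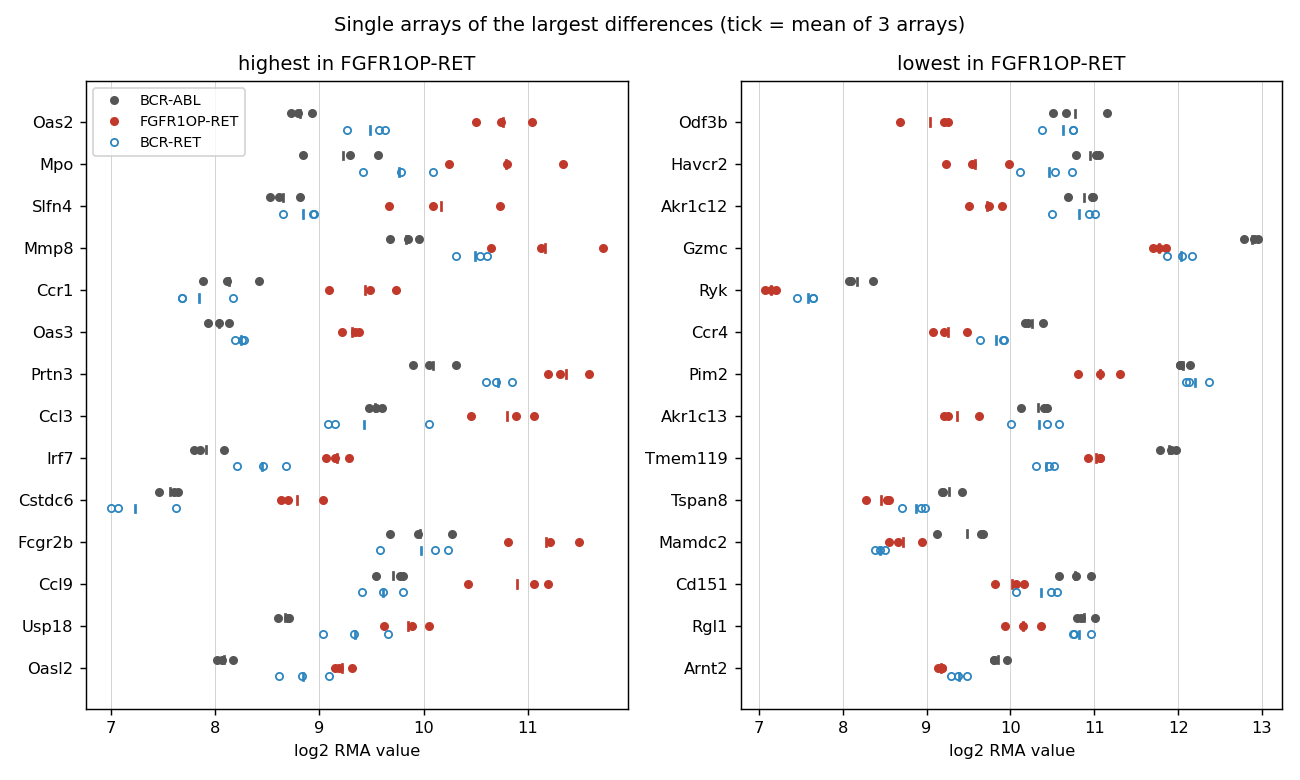
Each dot is the log2 RMA value of 1 array, for the 14 named genes with the highest (left) and the 14 with the lowest (right) differences past the threshold; ticks are means of 3 arrays, grey is BCR-ABL, red FGFR1OP-RET and open blue BCR-RET. The grey and red dots do not overlap in any row, and the blue dots lie near the grey ones for Ccr1, Akr1c12 and Pim2, and near the red ones for Gzmc and Mamdc2.

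Granzymes are the granule proteases of cytotoxic lymphocytes. Of 13 measured, 3 were lower and none was higher (23.1% called, against 1.02% of all genes and 6.37% of all list genes). Gzmc read 12.79, 12.95 and 12.91 against 11.86, 11.77 and 11.70 (difference -1.11, SE 0.08, 2.15-fold, adjusted p = 0.000709). Gzmb, near the top of the scale, read 13.93, 13.99 and 14.01 against 13.63, 13.62 and 13.63 (difference -0.35, SE 0.05, adjusted p = 0.0181), and Gzmg, at the low end, fell by 0.42 (adjusted p = 0.0076). Gzmc was as low in BCR-RET cells (11.87, 12.05 and 12.17; contrast -0.25, adjusted p = 0.219). Other T and NK cell genes did not follow: of 25 measured, 0 passed limma's test and 1 had an unadjusted p under 0.05, and Cd3e, the T-cell receptor component, was at -0.02. Gzmc and Gzmg held, and Gzmb lost its call under 5 omissions (adjusted p up to 0.111, without BCR-ABL replicate 2).

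A pair of aldo-keto reductases, enzymes that reduce steroids and other carbonyls, fell together. Akr1c12 read 10.69, 10.97 and 10.99 against 9.74, 9.51 and 9.90 (difference -1.17, SE 0.15, 2.25-fold, adjusted p = 0.00667) and held. Akr1c13 read 10.13, 10.40 and 10.44 against 9.25, 9.21 and 9.62 (difference -0.96, adjusted p = 0.0244) and lost its call under 5 omissions (adjusted p up to 0.137, without BCR-ABL replicate 2). In BCR-RET cells both stood near the BCR-ABL level, and the contrasts of the RET fusions were -1.10 (adjusted p = 0.00913) and -0.98 (adjusted p = 0.0216). Of the other 33 genes of that list, Hsd11b1, which activates glucocorticoids, rose by 0.75 (adjusted p = 0.032; up to 0.149 without BCR-ABL replicate 2).

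Several more surface and signalling genes were lower. Ryk, a Wnt receptor with an inactive kinase domain, read 8.07, 8.10 and 8.36 against 7.15, 7.08 and 7.21 (difference -1.03, SE 0.09, 2.04-fold, adjusted p = 0.00143) and was the 1 gene of 54 in the Wnt, Notch and TGF-beta list that passed. Tmem119, known as a microglial surface marker, read 11.97, 11.92 and 11.78 against 10.92, 11.07 and 11.07 (difference -0.87, adjusted p = 0.00182), but BCR-RET cells were lower again, at 10.46, 10.52 and 10.30 (contrast 0.59, adjusted p = 0.00802). Tspan8, a tetraspanin, fell by 0.81 (adjusted p = 0.00595). These 3 held, as did Arnt2, a bHLH-PAS partner of the hypoxia and dioxin factors (-0.69, adjusted p = 0.00182). Tnfrsf9, the co-stimulator 4-1BB, read 10.73, 10.72 and 10.93 against 10.29, 9.89 and 10.32 (difference -0.63, adjusted p = 0.0486). Its BCR-RET arrays stood far above both at 11.97 ± 0.14 (SD, n = 3), and its call against BCR-ABL ended under each of the 9 omissions (adjusted p up to 0.205). Lower genes named by the rule for their size also include Rgl1 (-0.73), Mamdc2 (-0.76), Plekhf1 (-0.67), Strbp (-0.64, and -0.36 on a second probe set) and Fam20a (-0.64), of which none held (adjusted p up to 0.222, for Mamdc2).

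Of 39 measured adhesion genes, 3 were higher and 2 lower (12.8% called, against 1.02% of all genes and 6.37% of all list genes). The leukocyte integrin chains Itgb2 and Itgal, which pair as LFA-1, rose by 0.58 (adjusted p = 0.0238) and 0.37 (adjusted p = 0.0432), and Itgb3, a matrix receptor chain that pairs with Itgav, by 0.50. Itgav itself fell from 12.36, 12.38 and 12.37 to 11.94, 11.83 and 11.72 (difference -0.54, SE 0.06, adjusted p = 0.00506), and the tetraspanin Cd151, a partner of laminin-binding integrins, fell by 0.76 (adjusted p = 0.0446). Itgav held; leaving out an array kept 1 to 4 of the 5 calls, and without BCR-ABL replicate 2 Itgb2 had an adjusted p of 0.132, Itgal of 0.156 and Cd151 of 0.194. Of 42 genes of actin and motility, the phagocyte myosin Myo1f (0.63, adjusted p = 0.028) and Tmsb10 (0.38, adjusted p = 0.029) rose, and both lost their calls without BCR-ABL replicate 2 (0.156 and 0.137).

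Metabolic lists held single calls. Hk3, the hexokinase of myeloid cells, read 8.90, 8.95 and 9.01 against 9.69, 9.70 and 9.66 (difference 0.73, SE 0.05, 1.66-fold, adjusted p = 0.000351) and was higher than in BCR-RET cells by 1.01 (adjusted p = 2.55e-05). Of the other 39 glycolysis and hypoxia genes only Pdp1, the phosphatase that activates pyruvate dehydrogenase, passed, and it fell by 0.59 (adjusted p = 0.0254). Ern1, the kinase and ribonuclease IRE1 of the unfolded protein response, read 10.99, 10.95 and 10.82 against 11.68, 11.71 and 11.55 (difference 0.73, SE 0.07, adjusted p = 0.00182). Its 28 companions held 1 more call, Ermp1, a peptidase of the endoplasmic reticulum, at -0.58 (adjusted p = 0.00279). Alas1, the first enzyme of haem synthesis outside red cells, read 10.79, 10.55 and 10.73 against 11.46, 11.44 and 11.58 (difference 0.80, SE 0.07, adjusted p = 0.00143), alone among 23 iron and haem genes, where Lcn2, the siderophore-binding lipocalin, was at 1.04 (adjusted p = 0.0533). Hk3, Ern1, Ermp1 and Alas1 held, and Pdp1 had an adjusted p of 0.137 without BCR-ABL replicate 2.

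Singles from the remaining lists were smaller. Nt5e, the ectonucleotidase CD73 that makes adenosine, rose by 0.51 (adjusted p = 0.0238), Gadd45a, a stress and p53 target, by 0.58 (adjusted p = 0.0332), Tnfrsf14, the receptor HVEM, by 0.67 (adjusted p = 0.0152) and F10, coagulation factor X, by 0.45 (adjusted p = 0.00424). Mcoln2, a lysosomal cation channel, fell by 0.42 (adjusted p = 0.016). F10 held, and the others had an adjusted p of 0.0763 to 0.168 in their least favourable omission. Among 335 solute carriers Slc15a3, a lysosomal transporter of histidine and peptides, rose by 1.08 (2.11-fold, adjusted p = 0.00595) and held, and the zinc transporters Slc39a4 (-0.50, adjusted p = 0.0236) and Slc39a10 (-0.35, adjusted p = 0.0332) fell without holding (0.137 and 0.156).

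No gene passed limma's test in 21 of the 58 lists. Over all genes, 1943 (9.75%) had an unadjusted p under 0.05, against which the following counts are to be read. Such a p was found in 4 of 24 cyclins and CDK inhibitors (2 higher, 2 lower), 7 of 37 replication genes (4 higher, 3 lower), 5 of 27 mitosis genes (all lower) and 7 of 34 MYC and ribosome biogenesis genes (1 higher, 6 lower). The medians of these lists lay between -0.05 and 0.00. The same test called none of the 33 respiratory chain genes, whose median was -0.11, with 8 at an unadjusted p under 0.05 and 7 of them lower, and none of 34 amino acid stress genes (median -0.08, 7 unadjusted, 6 lower). Of 22 Toll-like receptor genes 7 reached an unadjusted p under 0.05, 6 of them higher, and of 21 JAK, STAT and phosphatase genes 7, 5 of them higher. Of 15 BCL2 family genes 2 did so, of 22 caspase and inflammasome genes 7, all higher, and of 36 cholesterol and fatty acid genes 3. Limma also called 0 of 36 lipid mediator genes (3 unadjusted) and 0 of 34 oxidative stress and glutathione genes (4 unadjusted). Among symbol families limma called 0 of 1027 olfactory receptors, 0 of 300 microRNA genes and 0 of 70 ribosomal proteins.

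The lists held 94 of the 203 genes, 6.37% of the 1475 list genes measured, and 109 (82 higher, 27 lower) were in none, 0.59% of the genes outside the lists. Those below that were not named by the rule were chosen after their values were seen. Pram1, an adaptor of myeloid cells, read 8.93, 9.11 and 9.05 against 9.83, 10.31 and 10.04 (difference 1.03, SE 0.11, 2.04-fold, adjusted p = 0.00314), and was above BCR-RET cells by the same amount (1.03, adjusted p = 0.003). Cstdc6, a cystatin-domain protease inhibitor, read 7.64, 7.61 and 7.46 against 8.70, 9.03 and 8.63 (difference 1.22, SE 0.16, 2.33-fold, adjusted p = 0.00784). In BCR-RET cells it stood at 7.23 ± 0.34 (SD, n = 3), and BCR-RET minus BCR-ABL, -0.33, did not pass (adjusted p = 0.47). Its stefin relatives Stfa3 (1.30, adjusted p = 0.0916) and Csta3 (1.18, adjusted p = 0.113) had values of that size but did not pass. Adam8, a leukocyte metalloprotease, rose by 0.85 (adjusted p = 0.00182), and Arid3a, a transcription factor, by 0.48 (adjusted p = 0.00233). All 4 of these calls held.

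Other genes outside the lists have various roles. Plin2, which coats lipid droplets, read 10.23, 10.22 and 10.17 against 10.81, 11.06 and 10.77 (difference 0.67, SE 0.07, adjusted p = 0.00332). Far2, which makes fatty alcohols, rose by 0.94 (adjusted p = 0.0102), to a level that BCR-RET cells shared (contrast 0.20, adjusted p = 0.511). Selenbp1 and Selenbp2, the selenium-binding proteins, rose by 0.88 (adjusted p = 0.00506) and 0.85 (adjusted p = 0.00574) and were likewise near BCR-RET cells (contrasts 0.15 and 0.22, adjusted p = 0.539 and 0.372). These 4 held. Pparg, the lipid-sensing nuclear receptor, rose by 0.60 (adjusted p = 0.0332) but lost its call under 8 omissions (adjusted p up to 0.147). Gria3, a glutamate receptor subunit, rose by 0.70 (adjusted p = 0.00786) and held, and Zfp36, which destabilises cytokine mRNAs, rose by 0.49 (adjusted p = 0.032) and lost its call under each of the 9 omissions (up to 0.0981).

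Some genes that passed lay near each other. In chromosome order on GRCm38.p6, used for order alone since the array annotation's own build is unknown, 49 of the 203 genes stood within 5 measured genes of another in 20 groups. In 14 groups all were higher, in 5 all were lower, and 1 group was mixed. How many groups would form with 203 genes placed at random was not tested. With 157 of the 203 higher, neighbours would often share a direction in any case. Some are tandem families, such as Oas2, Oas3 and Oas1b, or Slfn5, Slfn1 and Slfn4, or Gzmg, Gzmc and Gzmb. Others join unrelated genes. Lmf2, a lipase maturation factor (-0.66, adjusted p = 0.00314), Odf3b (-1.73) and Mapk8ip2, a JNK scaffold (-0.68, adjusted p = 0.00344), fell together on chromosome 15, while Ncaph2, which lies between Lmf2 and Odf3b, was level at 0.02 (adjusted p = 0.969). Lmf2 read 12.29, 12.29 and 12.25 against 11.54, 11.65 and 11.65, and all 3 calls held.

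On the same chromosome Ncf4 (0.35), Csf2rb2 (0.56), Csf2rb (0.69) and the sulphur-transfer enzyme Mpst (0.25, adjusted p = 0.0407) rose close together. Around Prtn3 on chromosome 10, Plppr3, a phospholipid phosphatase-related protein (0.48, adjusted p = 0.00239), and Arid3a (0.48) rose, and Elane, next to Prtn3, was at 0.71 without passing. Havcr2 stood next to Med7, a Mediator subunit, which fell by 0.26 (adjusted p = 0.0432). The mixed group on chromosome 19 held Plgrkt (0.34, adjusted p = 0.0432) and Cd274 (0.33), both higher, and Ermp1 (-0.58), lower. Plppr3 held, whereas without BCR-ABL replicate 2 Mpst had an adjusted p of 0.176 and Med7 of 0.201, and without BCR-ABL replicate 3 Plgrkt of 0.166.

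**Figure D5:**
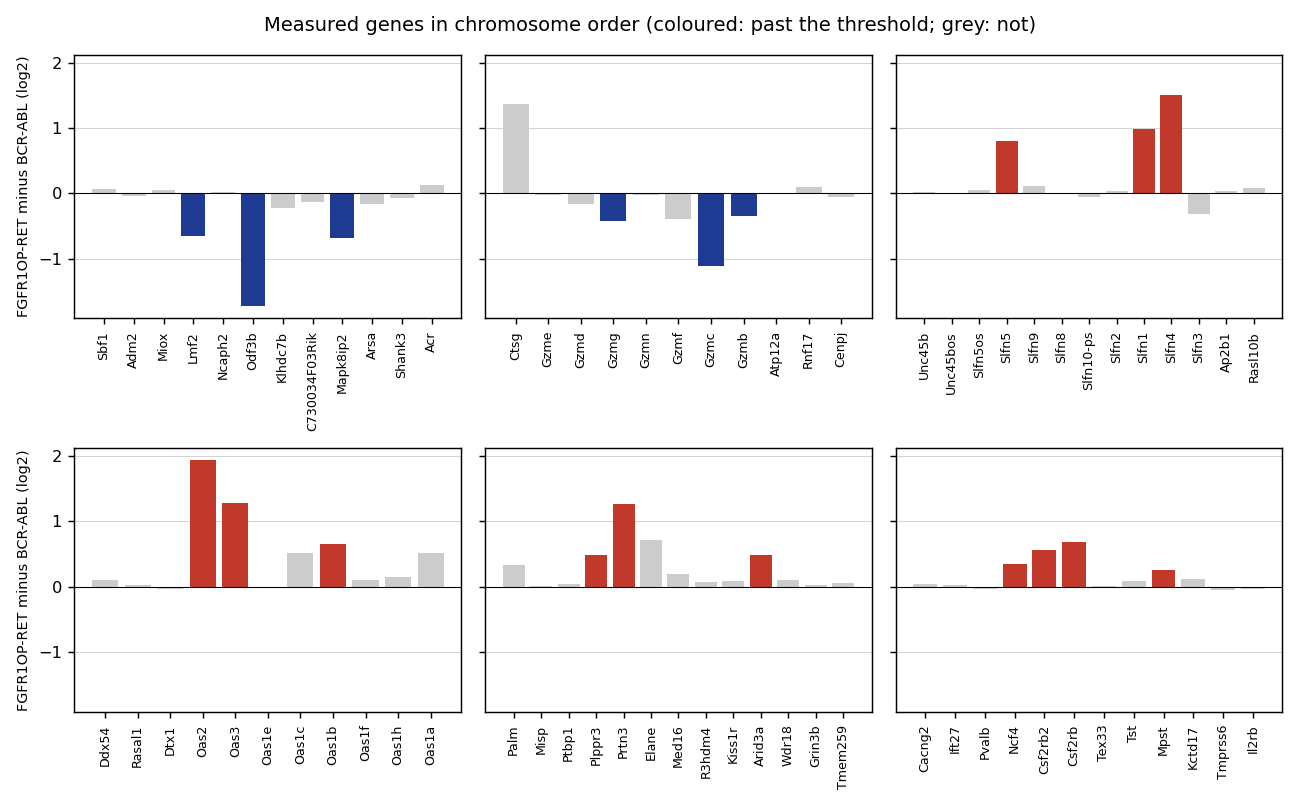
Bars are FGFR1OP-RET minus BCR-ABL (log2) for consecutive measured genes in chromosome order around 6 groups; red bars passed and were higher, blue bars passed and were lower, and grey bars did not pass. Lmf2, Odf3b and Mapk8ip2 are blue with Ncaph2 at 0.02 between them, and Ctsg stands at 1.36 in grey beside the blue granzymes.

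Of 39 genes with a difference of at least 1 in size, 9 did not pass; the highest of the named ones were Ctsg, Stfa3, Clec5a and Csta3, given above, and Mirt2, a long non-coding RNA, at 8.59, 8.83 and 8.99 against 9.17, 10.34 and 10.06 (difference 1.06, SE 0.27, adjusted p = 0.148). On the lower side the largest were Pdcd4, a translation inhibitor, at -0.83 (adjusted p = 0.554), Scoc at -0.74 (adjusted p = 0.262), Pros1, protein S, at -0.68 (adjusted p = 0.113), and the zinc finger genes Zfp980 and Zfp983, both at -0.62. In Pdcd4 the arrays of a group lay more than 1 log2 unit apart, at 9.29, 9.91 and 10.79 in FGFR1OP-RET cells.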

How the data were processed

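RNA of BaF3 cells was extracted with Trizol and hybridised to MouseGene 1.0 ST arrays, per the labels' protocols. The deposited log2 values, 1 for each probe set on each array, are gene-level RMA output. The submitters' processing notes name Expression Console by Affymetrix, and its version, annotation and build were not stated. RMA makes the arrays' distributions alike, so a shift of most genes would not be seen. The values ran from 2.66 to 14.92, and array medians from 8.01 to 8.04. Correlations between arrays were 0.993 to 0.996 within and 0.990 to 0.996 between groups. Depth has no meaning here: the number of arrays limits precision (median SE 0.07). In 30.1% of genes, 3 or more arrays carry a value that is equal at 5 decimals.

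Of 35557 probe sets, the 21789 with 1 symbol in the platform annotation were used, and for 999 genes with several the probe set of highest 9-array mean, leaving 19938 genes. Symbols were checked by Entrez identifier against a GRCm38.p6 gene table (91 not found, 0 changed). The log2 values were fitted with limma 3.58.1 (lmFit, eBayes) in R 4.3.3, with 1 mean per group over all 9 arrays, with p-values adjusted by Benjamini-Hochberg and a threshold of 0.05. Tested on simulated data with 200 of 19938 genes changed, this comparison recovered 77% of changes of 0.5 and 94% of changes of 1, with 3 false among 174 calls; real arrays may share noise that the simulation lacks. 

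The comparison, 58 gene lists and 37 symbol families were chosen with earlier results of these data known; lists are described by counts and medians, without a test. Named genes are the 20 highest and 20 lowest differences among genes that passed with groups that do not overlap (predicted genes and clones left out). Added to these are the 10 lowest p-values beside them, up to 8 passing members of each list or family and the first 2 genes of each list. The fusion genes and the 5 highest and 5 lowest that did not pass complete the set. Replicate numbers are shared by the groups, and deviations of same-numbered arrays correlated at 0.382, -0.128 and 0.4. As -0.128 lay below the limit of 0.1 and the labels name no pairing, the arrays were not treated as pairs. Deviations that follow the number, as between arrays 1 and 3 of opposite groups (-0.311 and -0.523), therefore stay in the error of the main fit. Alternatives were 9 omissions of an array and 9 other settings.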

Additional observations from a re-analysis of the deposited data

Results flagged for a closer look

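Outside the genes tested, 9 of the 12147 probe sets with no symbol and 15 of the 1621 with several symbols passed when all 35557 probe sets were fitted together with limma. Those with no symbol were higher in 8 cases and lower in 1, and those with several symbols were higher in 10 and lower in 5. They ranged from 1.54 (SE 0.16, adjusted p = 0.0158) to -0.88 (SE 0.09, adjusted p = 0.0165) on the log2 scale, and both ends carried several symbols. No gene is named for them here.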

How the results depend on the processing

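Against 203 genes past the threshold (157 higher, 46 lower, 30 with a difference of at least 1), fitting the 6 arrays of the comparison alone gave 94 (67, 27 and 18). Testing all 35557 probe sets together gave 121 (92 and 29), of which 93 of the 203. With the replicate number as a block there were 576 (401 higher, 175 lower, and 38 of the 39 genes with a difference of at least 1), all of the 203 among them. FGFR1OP-RET array 1 and array 3 correlated best with the BCR-ABL array of their own number (0.382 and 0.4), and array 2 did not (-0.128, against 0.213 with number 1). FGFR1OP-RET array 1 with BCR-ABL array 3, and array 3 with array 1, correlated at -0.311 and -0.523. The design does not show that the number is a pairing, so spread that follows it stays in the error of the main fit. Leaving out 1 array gave 70 to 185 genes in all, 53 to 143 higher, 17 to 43 lower and 17 to 41 with a difference of at least 1; the lowest totals were 70 without BCR-ABL replicate 2, 95 without BCR-ABL replicate 3, 100 without BCR-ABL replicate 1, 106 without FGFR1OP-RET replicate 2 and 134 without BCR-RET replicate 2. The other settings (mean of probe sets, low-value filter, cyclic loess, trend, robust prior, repeated values left out) gave 184 to 250 genes. No called gene changed direction under any of the 18 settings. The design has 3 arrays a group, and detection calls were not used, so values at the low end carry no statement on presence.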
